A study of Mus musculus with 9 samples.

Results

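The genes described here are 10 genes of the engine that drives cells through S phase and mitosis: the cyclin-dependent kinases Cdk1 and Cdk2, the cyclins Ccna2, Ccnb1, Ccnb2, Ccne1 and Ccne2, and the phosphatases Cdc25a, Cdc25b and Cdc25c. They were taken by gene name, by a rule that reads no values, from a table of 54532 mouse genes, in which each of the 10 names was found. The list was nevertheless drawn up with earlier results of these data known, and the study lists Cdk1 and Ccna2 as down-regulated. RNA sequencing was performed on 9 libraries of B.END3 cells, which the study describes as mouse endothelial cells of brain vessels, though its methods call them rat. The 3 Ctrl libraries came from untreated cells, and the other groups received photodynamic treatment (PDT), in which red light excites a photosensitizer that then forms reactive oxygen species. The 3 Ep1 and 3 Ep2 libraries came from monolayers that were given porfimer sodium at 300 µg/mL for 90 min and then light at 635 nm and 100 mW/cm2, to a dose of 10 J/cm2 in Ep1 and 20 J/cm2 in Ep2. No library of drug alone or light alone was among the samples, so drug and light cannot be told apart in a comparison with Ctrl. The time between light and lysis, and whether the libraries of a group came from separate cultures, are not given in the sources used here, so p-values measure the spread between these libraries.

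A cyclin binds a CDK and switches the kinase on, and each cyclin is made and destroyed in a set part of the cell cycle. Cyclin E with CDK2 acts at the start of S phase, cyclin A acts with both kinases through S phase and G2, and cyclin B with CDK1 drives mitosis, while CDC25 phosphatases remove the inhibitory phosphates that hold these complexes back. Transcripts of most of these genes rise and fall with the cycle, so their level in a cell population depends on how many cells are in each phase, and fewer cells in a phase and less RNA per cell cannot be told apart in these bulk libraries.

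Between 16240688 and 19509225 fragments were counted on genes per library, and 146 to 5281 of them on each of the 10 genes. Libraries of one group differed by more than counting noise (chi-square per degree of freedom 2.70 to 13.8), and Ep2 replicate 1 stood farthest from its group, at 9.17 and 13.8 from the other Ep2 libraries against 4.64 between those. The share of fragments on mitochondrial genes was 1.90% to 1.99% in Ctrl, 1.997% to 2.08% in Ep1 and 2.04% to 2.49% in Ep2. Of 12 endothelial markers, 2 (Flt1 and Egfl7) passed the filter described below, Emcn, Erg and Sox17 were listed at 0 in every library, and Pecam1 reached at most 0.242 FPKM, while Cdh5 and Kdr reached at most 1.09 and 0.0594 FPKM. Of 6 epithelial markers, the keratins Krt8 (562 to 714 FPKM), Krt18 and Krt19 were high, Epcam reached at most 2.03 FPKM and Cdh1 at most 0.103, and Krt7 was listed at 0 in every library. The summed FPKM of the endothelial list was 10.06 to 10.3 in Ctrl, 10.22 to 11.71 in Ep1 and 13.14 to 14.2 in Ep2, and that of the epithelial list 1029 to 1081, 936.8 to 1041 and 1155 to 1372. The higher endothelial sum in Ep2 lay in Flt1 (6.66 to 7.04 FPKM in Ctrl, 10.4 to 11.7 in Ep2), while Egfl7 was at 1.87 to 2.42 FPKM in Ctrl and at 1.26, 2.46 and 1.23 in Ep2, so the list did not move as one. The identity of the cell line was not tested, nor was the part of mitochondrial share and of either marker list in the values below.

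RefSeq sequences just before the transcription start were taken for 7 of the 10 genes (all but Ccna2, Ccne2 and Cdc25c). Cdc25c was left out of this search, so whether RefSeq holds such a sequence for it was not tested. The 250 bases before the start are printed 5′ to 3′ on the gene's own strand, on GRCm38.p6, for the genes that mark the range of change described below: Cdk1 (chr10:69352913-69353162, minus strand), Ccnb1 (chr13:100786487-100786736, minus), Ccnb2 (chr9:70421555-70421804, minus), Cdk2 (chr10:128705052-128705301, minus) and Ccne1 (chr7:38107491-38107740, minus). The gene spans listed in the deposited table reach 26 bases into this window for Cdk1, 84 for Ccnb1 and 44 for Ccne1. Capitals mark matches, on either strand, to 3 motifs known from cell cycle promoters: the CCAAT box (CCAAT), the cell cycle homology region or CHR (TTTGAA or TTCGAA), and the E2F site, searched as the word TTGGCGC, as TTGCCGC, as TTCGCGC and with TTCCCGC.
Cdk1: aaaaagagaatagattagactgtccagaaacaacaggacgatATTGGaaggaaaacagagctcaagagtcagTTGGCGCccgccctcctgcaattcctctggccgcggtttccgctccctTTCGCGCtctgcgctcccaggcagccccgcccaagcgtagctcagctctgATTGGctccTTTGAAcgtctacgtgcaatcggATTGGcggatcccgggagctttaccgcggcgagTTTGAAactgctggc
Ccnb1: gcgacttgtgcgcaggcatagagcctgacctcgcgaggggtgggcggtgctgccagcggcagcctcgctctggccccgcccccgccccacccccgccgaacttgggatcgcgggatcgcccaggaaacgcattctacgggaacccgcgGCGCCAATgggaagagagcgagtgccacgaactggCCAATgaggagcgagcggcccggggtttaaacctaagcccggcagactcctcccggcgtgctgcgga
Ccnb2: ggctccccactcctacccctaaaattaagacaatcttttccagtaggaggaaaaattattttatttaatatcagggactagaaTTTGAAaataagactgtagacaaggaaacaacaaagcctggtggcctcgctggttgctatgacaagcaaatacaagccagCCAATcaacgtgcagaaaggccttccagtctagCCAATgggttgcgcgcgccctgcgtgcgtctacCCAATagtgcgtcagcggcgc
Cdk2: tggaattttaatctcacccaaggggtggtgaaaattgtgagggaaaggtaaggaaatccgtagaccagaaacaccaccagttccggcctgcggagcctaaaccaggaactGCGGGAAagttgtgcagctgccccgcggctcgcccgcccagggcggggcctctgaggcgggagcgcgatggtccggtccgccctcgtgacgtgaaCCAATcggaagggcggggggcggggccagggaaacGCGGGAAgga
Ccne1: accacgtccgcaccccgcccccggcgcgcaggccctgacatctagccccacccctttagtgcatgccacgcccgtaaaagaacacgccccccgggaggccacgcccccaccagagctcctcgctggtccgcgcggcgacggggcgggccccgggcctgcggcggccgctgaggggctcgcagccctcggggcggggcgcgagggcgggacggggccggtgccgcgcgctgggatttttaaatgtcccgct
The Cdk1 sequence held 3 CCAAT boxes, 2 CHR words and 2 E2F words, and the Ccnb1 sequence held 2 CCAAT boxes, of which the first overlaps an E2F word. Ccnb2 held 1 CHR word and 3 CCAAT boxes, whose starts lie 33 bases apart, and the CCAAT pairs nearest to the start of Ccnb1 and Cdk1 are 32 bases apart. Cdk2 held 1 CCAAT box and 2 E2F words, and Ccne1 held none of these words. Of the unprinted sequences, Cdc25a held 2 CCAAT boxes and 2 E2F words that overlap each other, and Cdc25b held 1 CCAAT box. Among the 50 bases after the start, a CHR word begins at base 5 in Ccnb2 and at base 8 in Cdc25b, and an E2F word at base 41 in Cdk2. Over the same 300 bases of all 32851 RefSeq promoters, 37.4% held a CCAAT box, 11.7% held 2 or more, 19.2% held a CHR word, 9.57% an E2F word, and 7.52% both a CCAAT box and a CHR word. A match is a run of letters and not a measured binding site.

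Expression is given in FPKM, the fragments on a gene scaled by its listed length and by the fragments of the library. Levels, shares and ratios of different genes therefore rest on the listed lengths, and the lengths of the expressed transcripts were not tested. For example, Ccnb1 (4217 bases) had 5166 to 5281 fragments in Ctrl and Ccnb2 (1531 bases) 1873 to 2065, although Ccnb2 ranks higher in FPKM. The lowest value of any of the 10 genes in any library was 4.53 FPKM, so all 10 passed the filter of the test. In Ctrl, the B cyclins were highest, with Ccnb2 at 68.0 ± 1.81 FPKM (SD, n = 3, as for all means below) and Ccnb1 at 64.7 ± 1.54 FPKM, and their libraries overlapped. Cdk1, Ccna2, Cdc25b, Ccne1, Ccne2 and Cdk2 followed in this order without overlap between neighbours, from 49.4 ± 1.02 to 13.1 ± 0.432 FPKM. Cdc25a (9.92 ± 0.315 FPKM) and Cdc25c (9.86 ± 0.524 FPKM) were lowest and overlapped.

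**Figure D1:**
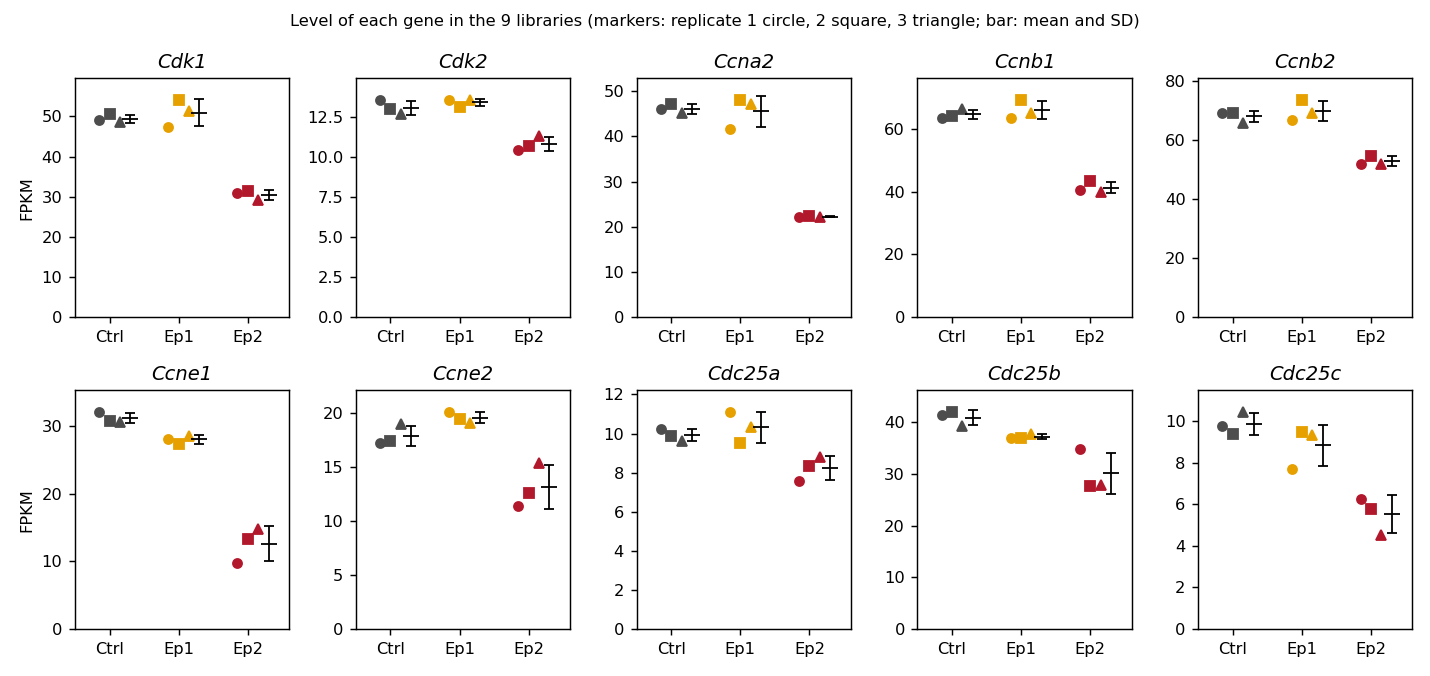
FPKM (vertical axes from 0) of the 10 genes in the 3 Ctrl, 3 Ep1 and 3 Ep2 libraries, with the mean and SD of each group beside its points. In all 10 panels the Ep2 points lie below every Ctrl and Ep1 point, while Ctrl and Ep1 overlap in 7.

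The comparison of Ep2 with Ctrl asks how these transcripts differed between untreated cells and cells given the drug with the higher light dose. All 10 genes were lower in Ep2, and for all 10 the highest Ep2 library lay below the lowest Ctrl library. The largest falls were in cyclin E1 (Ccne1, to 40.5% of its Ctrl mean) and cyclin A2 (Ccna2, to 48.2%), and the smallest in Cdk2 (to 82.8%) and Cdc25a (to 82.9%). Fold changes are differences of log2(FPKM + 1) from 1 limma model of all 9 libraries, over the 11727 genes that reached 1 FPKM in 3 or more libraries, with Benjamini-Hochberg adjustment. At an adjusted p below 0.05, 10 of the 10 genes fell, against 29.3% of all genes tested that were lower and 23.9% that were higher. A full separation of the Ep2 libraries below those of Ctrl, seen for all 10, was found for 32.7% of the genes tested. With an absolute log2 fold change above 0.6 as well, the rule for a differentially expressed gene (DEG), 5 were lower (Ccne1, Ccna2, Cdc25c, Cdk1 and Ccnb1), against 5.87% of the genes tested. The median log2 fold change of the 10 was -0.54, and that of all genes tested -0.03. Without Ep2 replicate 1, 10 genes again fell and 5 were DEGs. When libraries were centred on their median, which moved the median of all genes from -0.03 to 0.02, 551 genes were DEGs below Ctrl and 494 above, in place of 688 and 387, and voom on recovered fragments, over 14112 genes, gave 1048 and 1159. The 10 genes fell under both, with Ccnb1 at -0.59 after centring and so no longer a DEG there.

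Cdk1, on chromosome 10 (69335146 to 69352938, minus strand, positions on GRCm38), encodes the kinase of mitosis. It stood at 49.0, 50.6 and 48.7 FPKM in the Ctrl libraries, at 47.4, 54.1 and 51.3 in Ep1, and at 31.0, 31.3 and 29.1 in Ep2. The Ep2 libraries lay close together and well under all others, and the log2 fold change from Ctrl was -0.68 ± 0.0531 (SE, adjusted p = 1.28e-05). Cdk2, on the same chromosome (128697939 to 128705031, minus strand), encodes the kinase that pairs with cyclins E and A. Its level was 13.5, 13.0 and 12.7 FPKM in the Ctrl libraries, 13.5, 13.1 and 13.5 in Ep1, and 10.4, 10.7 and 11.3 in Ep2. Its fall was smaller but also beyond the spread of the libraries, at -0.25 ± 0.0457 on the log2 scale (adjusted p = 0.00135).

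Ccna2 encodes cyclin A2, the A-type cyclin of somatic cells (chromosome 3, 36564865 to 36572150, minus strand). Its Ctrl libraries held 46.0, 47.2 and 45.1 FPKM, its Ep1 libraries 41.6, 48.0 and 47.1 FPKM, and its Ep2 libraries 22.1, 22.4 and 22.2 FPKM. The SD of the Ep2 libraries, 0.139 FPKM, was the smallest of any gene and group here, and the log2 fold change from Ctrl was -1.02 ± 0.0540 (adjusted p = 2.71e-06). Ccna2 overlaps Exosc9 on the opposite strand, which was listed at 6.26 to 9.31 FPKM, and whether counting used the strand is not given in the sources used here. Ccna1, the germ-line A cyclin, was listed at 0 in every library.

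The B cyclins are the partners of CDK1 in mitosis. Ccnb1 (chromosome 13, 100778650 to 100786570, minus strand) stood at 63.5, 64.0 and 66.4 FPKM in the Ctrl libraries, 63.7, 69.2 and 65.2 in Ep1, and 40.6, 43.2 and 39.9 in Ep2. Ccnb2 (chromosome 9, 70407692 to 70421547, minus strand) stood at 69.1, 69.0 and 65.9 FPKM in the Ctrl libraries, 66.7, 73.5 and 69.0 in Ep1, and 51.7, 54.7 and 52.0 in Ep2. Both genes were lower in every Ep2 library, Ccnb1 by -0.64 ± 0.0468 on the log2 scale (adjusted p = 9.68e-06) and Ccnb2 by -0.36 ± 0.0462 (adjusted p = 0.000188). The copies Ccnb1-ps and Ccnb2-ps were listed at 1.26 to 2.47 and 0.0525 to 0.497 FPKM, and the division of reads between gene and copy was not tested. Ccnb3, the third B cyclin, was listed at 0 in every library.

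The E cyclins open S phase with CDK2. Ccne1 (chromosome 7, 38097984 to 38107534, minus strand) stood at 32.03, 30.7 and 30.6 FPKM in the Ctrl libraries, 28.1, 27.3 and 28.6 in Ep1, and 9.72, 13.3 and 14.8 in Ep2. Its 3 groups did not overlap, and the fall in Ep2 was the largest of the 10 genes, at -1.26 ± 0.119 on the log2 scale (adjusted p = 4.29e-05). Ccne2 (chromosome 4, 11191351 to 11204779, plus strand) was at 17.2, 17.5 and 19.0 FPKM in the Ctrl libraries, 20.1, 19.5 and 19.1 in Ep1, and 11.4, 12.6 and 15.4 in Ep2. Its log2 fold change in Ep2 was -0.42 ± 0.0897 (adjusted p = 0.00322). In both genes Ep2 replicate 1 was the lowest library of all, and without it the log2 fold changes were -1.10 for Ccne1 and -0.33 for Ccne2. Ccne2 overlaps Ints8 on the opposite strand, which was listed at 7.11 to 8.29 FPKM.

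The CDC25 phosphatases activate the kinases, CDC25A mainly from late G1 on, and CDC25B and CDC25C towards mitosis. Cdc25a (chromosome 9, 109875579 to 109893895, plus strand) was at 10.3, 9.88 and 9.63 FPKM in the Ctrl libraries, 11.1, 9.51 and 10.3 in Ep1, and 7.55, 8.35 and 8.79 in Ep2. Cdc25b (chromosome 2, 131186949 to 131198497, plus strand) was at 41.4, 42.0 and 39.2 FPKM in the Ctrl libraries, 37.0, 36.9 and 37.7 in Ep1, and 34.8, 27.7 and 27.9 in Ep2. For Cdc25b, Ep2 replicate 1 stood above the other Ep2 libraries but below all of Ctrl and Ep1. Cdc25c (chromosome 18) was at 9.75, 9.40 and 10.4 FPKM in the Ctrl libraries, 7.70, 9.49 and 9.32 in Ep1, and 6.27, 5.78 and 4.53 in Ep2. The log2 fold changes in Ep2 were -0.25 ± 0.0674 for Cdc25a (adjusted p = 0.0125), -0.43 ± 0.0778 for Cdc25b (adjusted p = 0.00126) and -0.74 ± 0.107 for Cdc25c (adjusted p = 0.00035). Cdc25c rested on the fewest fragments, 357 to 376 in Ctrl and 146 to 232 in Ep2. Cdc25b overlaps Spef1 on the opposite strand, which was listed at 1.12 to 3.02 FPKM, and Cdc25a spans Mir7089. The genes opposite Cdk2 (Pmel, at most 0.535 FPKM) and Cdc25c (Gm3550, at most 0.278 FPKM) were near 0.

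**Figure D2:**
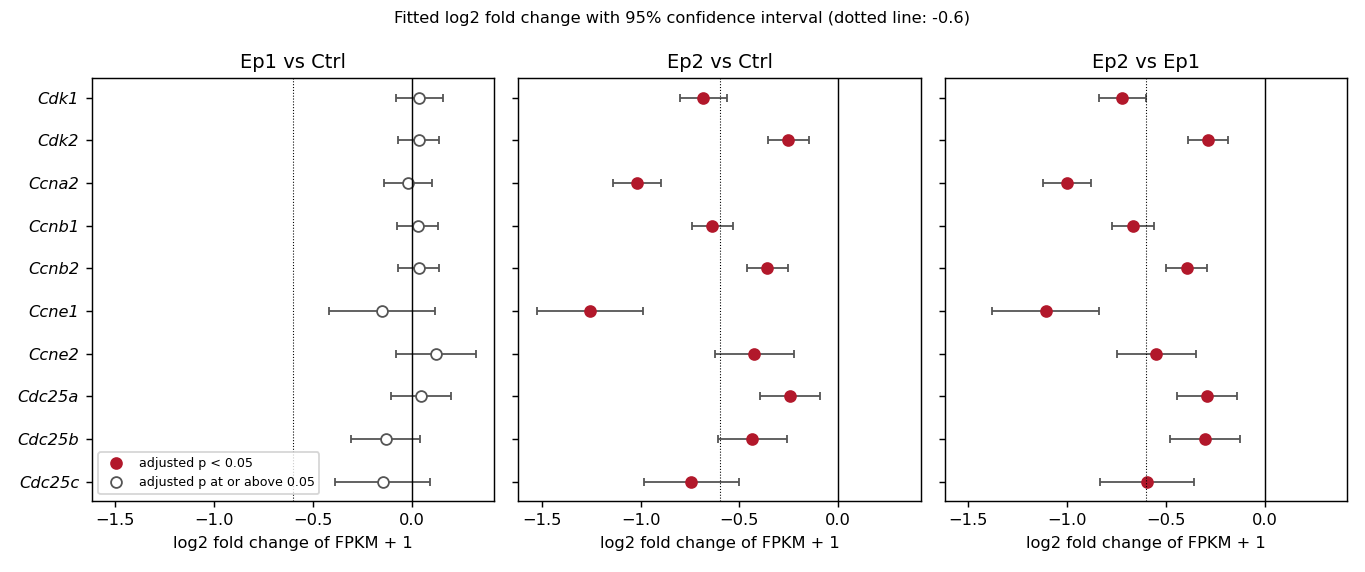
Log2 fold change of FPKM + 1 with its 95% confidence interval for the 10 genes in the 3 comparisons (filled, adjusted p below 0.05). The intervals all include 0 in Ep1 vs Ctrl, and all lie below 0 in Ep2 vs Ctrl and Ep2 vs Ep1, with Ccne1 and Ccna2 farthest from 0.

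At the lower light dose, none of the 10 genes passed the test against Ctrl by limma, against 11.3% of the genes tested that changed in either direction. No gene of the 10 had an unadjusted p under 0.05 (0.121 to 0.745), and the count was 0 with voom on recovered fragments as well. The log2 fold changes lay between -0.15 and 0.12, with a median of 0.03 against -0.01 over all genes tested. The 95% intervals bounded the change of Cdk1 to between -0.08 and 0.16, that of Ccna2 to between -0.14 and 0.10, and that of Ccnb1 to between -0.08 and 0.13. Those of Ccne1 (-0.42 to 0.12), Ccne2 (-0.08 to 0.33) and Cdc25c (-0.39 to 0.09) were wider. Ctrl and Ep1 libraries overlapped for 7 genes. All Ep1 libraries were below all Ctrl libraries for Ccne1 (28.0 ± 0.627 against 31.1 ± 0.781 FPKM) and Cdc25b (37.2 ± 0.445 against 40.9 ± 1.44 FPKM), a separation found in 20.5% of the genes tested. All were above for Ccne2 (19.6 ± 0.504 against 17.9 ± 0.939 FPKM), as in 20.8% of the genes tested. In a fit of only Ctrl and Ep1, Ccne1 (adjusted p = 0.0313) and Cdc25b (adjusted p = 0.0461) passed, which makes 2 of 10 against 18.4% of the genes tested in that fit. Without Ep2 replicate 1, Cdc25b passed (adjusted p = 0.037), 1 of 10 against 18.6%, so both counts lay near the share over all genes.

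Between the doses, all 10 genes were lower at 20 than at 10 J/cm2. The Ep2 libraries lay below all Ep1 libraries for each gene, as in 30.3% of the genes tested, and 10 of 10 passed the adjusted p, against 25.2% of the genes tested that were lower. As DEGs counted Ccne1 (-1.11 ± 0.119, adjusted p = 0.000131), Ccna2 (-1.002 ± 0.0540, adjusted p = 4.47e-06), Cdk1 (-0.72 ± 0.0531, adjusted p = 1.54e-05) and Ccnb1 (-0.67 ± 0.0468, adjusted p = 1.2e-05), which makes 4 of 10, against 3.97% of the genes tested. Cdc25c lay just short of the fold threshold at -0.60 ± 0.107 (adjusted p = 0.00173). The other 5 fell by 0.29 (Cdk2) to 0.55 (Ccne2) on the log2 scale. The median was -0.57, and -0.01 over all genes tested. Among all genes called in this comparison, 2950 were lower and 2206 higher, but 2383 lower and 2974 higher with libraries centred on their median, and 2776 and 3103 with voom. DEGs were 465 lower and 227 higher, after centring 331 and 315, and with voom 679 and 870. The 10 genes passed as lower in each. Each pair of the 3 comparisons shares a group of libraries, so they are not independent.

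To ask whether the genes kept their proportions, within each library, the log2 ratio of FPKM + 1 was formed for 5 pairs. A scale shared by both genes in a library largely cancels in this ratio, though not exactly with a pseudocount. The 3 groups were compared by an exact permutation test over all 280 partitions of the libraries (one-sided by construction, smallest possible p = 0.00357), with adjustment over the 5 pairs, and 4 of the 5 passed. The ratio of Ccne1 to Ccne2 was 0.86, 0.78 and 0.66 in Ctrl, 0.46, 0.47 and 0.56 in Ep1, and -0.21, 0.07 and -0.05 in Ep2. These values fell in order of dose without overlap, so that the FPKM of Ccne1 exceeded that of Ccne2 in Ctrl and Ep1 but not in 2 of the 3 Ep2 libraries. The permutation test of the 3 groups passed (exact p = 0.00357, adjusted p = 0.0179). It ignores their order, so it tests neither the order of dose nor Ep1 against Ctrl alone. The ratio of Ccna2 to Ccnb1 was -0.48 ± 0.0607 in Ctrl, -0.53 ± 0.0706 in Ep1 and -0.86 ± 0.0532 in Ep2 (exact p = 0.0179, adjusted p = 0.0446). The kinase ratio, Cdk1 to Cdk2, was 1.84 ± 0.0541, 1.85 ± 0.114 and 1.41 ± 0.107 in the same order of groups (exact p = 0.0357, adjusted p = 0.0446). For Ccnb1 to Ccnb2 it was -0.07 ± 0.0715, -0.08 ± 0.0101 and -0.35 ± 0.0217 (exact p = 0.0357, adjusted p = 0.0446). In each of these 3 pairs all Ep2 libraries lay below all others, and Ctrl and Ep1 overlapped. The ratio of Cdc25a to Cdc25b was -1.94 ± 0.0371, -1.76 ± 0.101 and -1.75 ± 0.275, and no difference between the groups was detected (exact p = 0.375, adjusted p = 0.375). That pair rests on 1 library, since without Ep2 replicate 1 the difference of Ep2 from Ctrl was 0.35 in place of 0.19 and the permutation test passed (adjusted p = 0.0357).

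**Figure D3:**
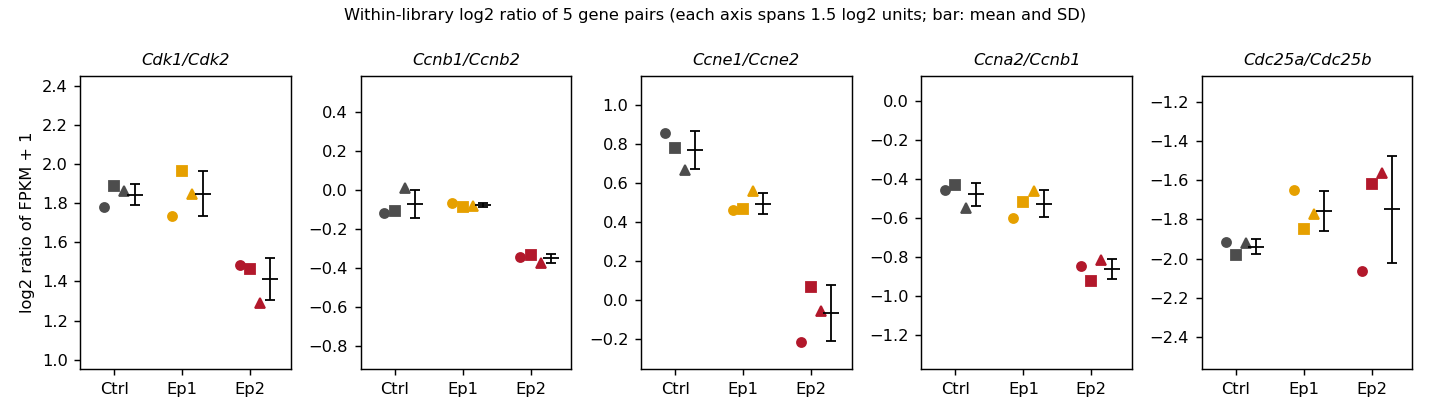
Log2 ratio of FPKM + 1 within each library for 5 gene pairs, with the mean and SD of each group (every vertical axis spans 1.5 log2 units). The Ep2 points lie below all others for Cdk1/Cdk2, Ccnb1/Ccnb2, Ccne1/Ccne2 and Ccna2/Ccnb1, and overlap them for Cdc25a/Cdc25b.

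The 5 cyclins together summed to 228 ± 0.685 FPKM for Ctrl, 229 ± 8.73 for Ep1 and 142 ± 5.69 for Ep2. Of this sum, B cyclins made up 58.2% ± 0.0401 in Ctrl, 59.3% ± 0.728 in Ep1 and 66.2% ± 2.30 in Ep2. Cyclin A2 made up 20.2% ± 0.400, 19.9% ± 0.877 and 15.7% ± 0.560, and the E cyclins 21.5% ± 0.382, 20.8% ± 1.08 and 18.1% ± 2.69. The Ep2 libraries did not overlap the others in the share of B or of A, but did in that of E, where Ep2 replicate 3 stood at 20.9% and Ep1 replicate 2 at 19.7%. Within the E cyclins, Ccne1 gave 63.5% ± 1.64, 58.9% ± 0.942 and 48.8% ± 2.68. The order of levels also moved, as Ccna2 ranked above Cdc25b in Ctrl and below it in Ep2. In Ep2, Cdk1 overlapped Cdc25b, and Ccne1 overlapped both Ccne2 and Cdk2.

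Of 43 genes that regulate or accompany these 10, listed by role, 41 were tested. The counts by role in Ep2 against Ctrl stand beside 29.3% of all genes tested that were lower and 23.9% that were higher. The kinases that hold CDKs back by phosphorylation, or that restrain CDC25, were 3, of which 2 fell in Ep2 against Ctrl. These were Pkmyt1, the membrane-bound inhibitor of CDK1 (14.3 ± 1.25 FPKM in the Ctrl libraries, 8.33 ± 0.433 in Ep2, a log2 change of -0.71 at adjusted p = 2.8e-05), and Chek1, the checkpoint kinase (-0.47, adjusted p = 4.39e-05). Wee1, the nuclear inhibitory kinase, was at -0.08 (adjusted p = 0.572), and at 0.05 without Ep2 replicate 1. Of 5 subunits that bind or activate CDKs, 2 fell, the small partners Cks1b (-0.51, adjusted p = 4.08e-05) and Cks2 (-0.44, adjusted p = 0.000249). Mnat1, an assembly subunit of the CDK-activating kinase, rose by 0.21 (adjusted p = 0.0428), a call that was lost under 11 of 16 alternatives, among them a fit of only the groups compared (adjusted p = 0.0832) and the omission of any single Ep2 library (0.056 to 0.0999).

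Of 6 mitotic entry kinases and inhibitors of the phosphatase PP2A, 5 fell and 1 rose, beside 29.3% and 23.9% of all genes tested. Plk1, the polo-like kinase of mitotic entry, was at 68.8 ± 2.83 FPKM in Ctrl and 31.0 ± 3.16 in Ep2, a log2 change of -1.13 (adjusted p = 4.03e-06). Aurka, the centrosomal Aurora kinase (-0.71, adjusted p = 1.42e-05), and Bora, its cofactor in the activation of PLK1 (-0.61, adjusted p = 2.84e-05), fell as well. Ensa, a PP2A inhibitor, rose by 0.14 (adjusted p = 0.0308), which did not pass under 7 of 16 alternatives, among them a fit of only the groups compared (adjusted p = 0.0696) and the omission of Ep2 replicate 1 (0.0691). All 7 ubiquitin ligase adaptors and inhibitors, which time the destruction of cyclins and other cell cycle proteins, fell, 4 of them as DEGs, against 29.3% of the genes tested that were lower and 5.87% that were DEGs below Ctrl. Among the 7, Btrc had a mean above 1 FPKM only in Ctrl (1.14, against 0.959 in Ep1 and 0.782 in Ep2). Its passing of the filter and its fall are therefore not independent. Cdc20, the mitotic activator of the anaphase-promoting complex, fell from 137 ± 6.68 to 62.3 ± 4.97 FPKM (-1.13, adjusted p = 5.91e-06). Fbxo5, an inhibitor of that complex (-0.81, adjusted p = 5.92e-06), and Ccnf, the F-box protein cyclin F (-0.72, adjusted p = 6.64e-06), followed.

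Of 7 transcription factors and complex subunits that act on S phase and mitotic promoters, 5 fell and none rose, beside 29.3% and 23.9% of all genes tested. The largest change was in Mybl2, or B-MYB, from 43.4 ± 2.02 to 18.8 ± 0.467 FPKM (-1.16, adjusted p = 1.47e-06). Foxm1, a forkhead factor of G2 genes, was at -0.54 (adjusted p = 5.35e-05) and E2f1 at -0.50 (adjusted p = 0.000174). Of the 15 other cyclins and CDKs, 13 were tested and Ccna1 and Ccnb3 were listed at 0. Of these 13, 4 fell and 3 rose, near the shares over all genes tested (29.3% lower and 23.9% higher). The G1 kinase Cdk4 (-0.48, adjusted p = 2.84e-05), the G1 cyclin Ccnd3 (-0.62, adjusted p = 7.97e-05) and the transcription elongation kinase Cdk9 (-0.24, adjusted p = 0.00177) fell. Cdk12, which phosphorylates RNA polymerase II, rose by 0.37 (adjusted p = 0.00372). Over the 6 roles, 25 of the 41 fell and 5 rose, beside 29.3% of tested genes that were lower and 23.9% that were higher. Under the alternatives that tested all 41, 22 to 25 fell and 2 to 5 rose. In Ep2 against Ep1, 26 were lower and 2 higher, beside 25.2% and 18.8% of the genes tested. Of the named genes among these, Wee1 lost its call under 12 of 16 alternatives (adjusted p 0.00545 to 0.127), Cdk9 under 8 (0.0201 to 0.156) and Ensa under 6 (0.00557 to 0.0725). In Ep1 against Ctrl, 5 of the 41 passed, near the 11.3% of all genes tested. Lin9 (0.27), Lin54 (0.20), Ccnc (0.28) and Cdk12 (0.42) were higher and Ccnd3 (-0.28) was lower on the log2 scale, with adjusted p from 0.0156 to 0.0418, the first 3 named after their values were seen. None of the 41 passed there when genes under the filter were kept, without Ctrl replicate 2 or without Ep1 replicate 3. Leaving out 1 of the 9 libraries in turn ended the call of Lin54 in 7 cases, of Ccnd3 in 6, of Lin9 and Ccnc in 5 each, and of Cdk12 in 2.

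**Figure D4:**
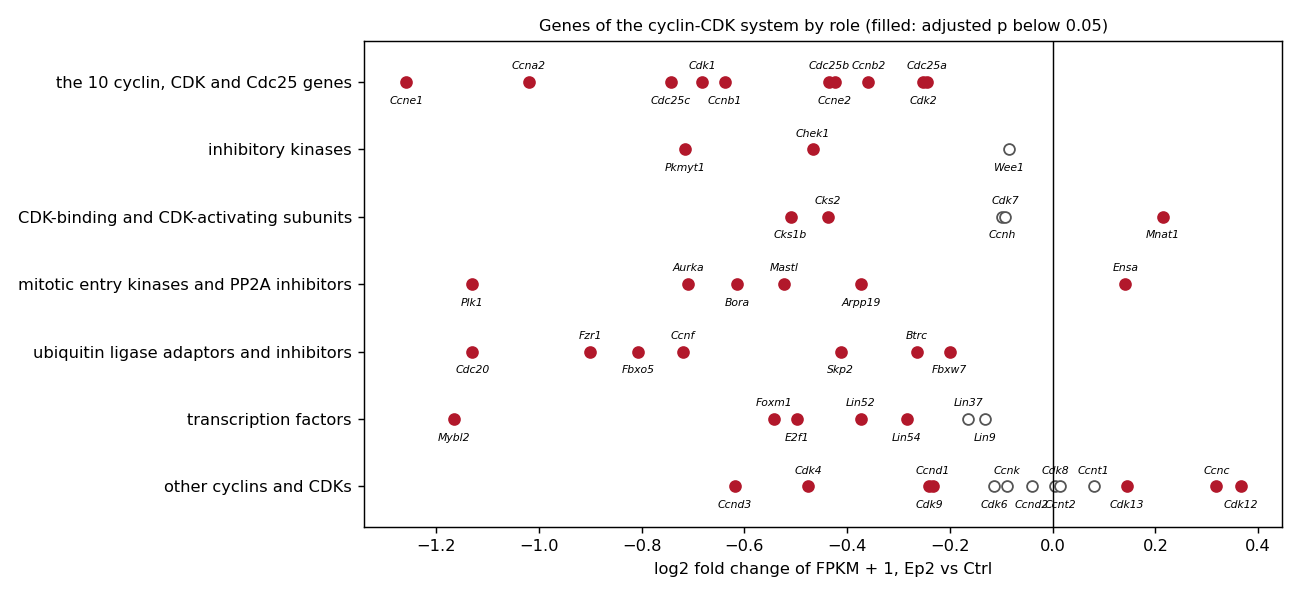
Log2 fold change of FPKM + 1 in Ep2 vs Ctrl (horizontal axis) for the 10 genes and for 41 tested genes of the cyclin-CDK system, 1 row per role (filled, adjusted p below 0.05). All 7 ubiquitin ligase genes, among them Btrc near the filter, lie below 0. The other cyclins and CDKs lie on both sides, from -0.62 (Ccnd3) to 0.37 (Cdk12).

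Outside the 10, the genes with the most similar course over the 9 libraries were sought among 7242 tested genes with a mean of at least 5 FPKM, by the mean absolute difference of log2(FPKM + 1) after centring each gene on its mean. Nearest to Cdk1 was Dut, the enzyme that removes dUTP (difference 0.03), from 88.5 FPKM in Ctrl to 91.0 in Ep1 and 55.4 in Ep2. The next were Shmt2, a mitochondrial enzyme of one-carbon metabolism, and H2afz, the histone variant H2A.Z. Nearest to Ccnb1 were Anp32e, Prdx3 and Gins4 (0.03 to 0.04). Ccne1 was followed most closely by Cdc6, a factor that loads the replicative helicase on DNA (difference 0.05), at 22.7 FPKM in the Ctrl libraries, 20.8 in Ep1 and 9.20 in Ep2, then by Slc29a1 and Uhrf1. The nearest courses to Cdk2 were those of Abcf1, Prep and Ubfd1 (0.02 to 0.03). The genes were ranked on the same libraries that gave the fold changes, so their likeness is a description.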

How the data were processed

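Total RNA of 9 libraries (3 each of Ctrl, Ep1 and Ep2) was sequenced, and the authors deposited 1 FPKM value per gene and library for 54532 genes. The submitters' processing notes list Bowtie 0.12.2 and mm8, while the study's methods name GRCm39. The listed positions overlap RefSeq GRCm38 for 99.86% of 37624 genes and GRCm39 for 10.91% of 50453, so positions are given on GRCm38. The growth notes and the study's methods call the cells rat, and the organism label is Mus musculus. All 9 single-library tables equal the joint table. FPKM times gene length gave whole multiples of 1 step per library (within 0.05), from which fragments were recovered, with 16240688 to 19509225 per library.

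The members and lists were chosen with earlier results of these data known. Groups follow the sample labels. Genes with at least 1 FPKM in at least 3 libraries (11727) were tested on log2(FPKM + 1), a scale that understates changes of low genes, in 1 limma model of all libraries with lmFit, and eBayes with its trend and robust options, with Benjamini-Hochberg adjustment within each comparison and thresholds of 0.05 and, for DEGs, 0.6. Ratios of 5 pairs were compared by exact permutation. All 10 members were named, and of each role list the 3 genes with the smallest adjusted p in Ep2 vs Ctrl, the smallest against the list's main direction, and those under the filter. Markers of 5 cell types were checked: leukocyte markers summed to at most 0.103 FPKM per library, pericyte and fibroblast markers to 0.534 to 1.23, and astrocyte and neuron markers to 0.499 to 1.14. The fit was run on simulated counts with the same relative spread beyond counting noise for all genes and groups, and with no outlying library. The real libraries differ from that setting, so the simulation does not show how the fit performs on them. Alternatives were median centring, no filter, a mean of at least 5 FPKM, a pseudocount of 0.1, voom on recovered fragments (14112 genes that reached 10 fragments in 3 or more libraries), a replicate block, only the groups compared, a fold threshold of 1, and the omission of each replicate. Fragment counts carry counting error only, and the spread between libraries exceeded it. Models were run in R 4.3.3 with limma 3.58.1, and the rest in Python 3.11.15 with scipy 1.17.1, pandas 2.3.3, numpy 2.4.6 and matplotlib 3.10.9.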

Additional observations from a re-analysis of the deposited data

How the results depend on the processing

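Each of the 10 genes was lower in Ep2 than in either other group, with an adjusted p below 0.05, under each of the 16 alternatives run for them. Of the 5 ratios, each run under 10 alternatives, 4 kept their call. With a fold threshold of 1, 2 genes were DEGs in Ep2 vs Ctrl. In Ep1 vs Ctrl, the count of genes past the adjusted p was 2 in a fit of only the groups compared, where 18.4% of all genes passed, and 0 to 1 when each replicate was left out. The 1 came without Ep2 replicate 1, where 18.6% of all genes passed. The Cdc25a/Cdc25b difference of Ep2 from Ctrl ranged from 0.0970 to 0.348 over those omissions and passed only without Ep2 replicate 1.

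Signs that turned belonged to changes that did not pass the test. When each replicate was left out, the Ep1 vs Ctrl log2 fold change ranged from -0.0042 to 0.0892 for Cdk1, from -0.0565 to 0.0449 for Ccna2, from -0.0045 to 0.0550 for Ccnb1, from -0.0022 to 0.0669 for Ccnb2, and from -3.955e-05 to 0.101 for Cdc25a. For regulators it ranged from -0.0458 to 0.0252 for Cks1b and from -0.0693 to 0.0235 for Bora, while Wee1 ranged from -0.209 to 0.0498 in Ep2 vs Ctrl and Cdk12 from -0.0999 to 0.0241 and Ccnc from -0.0353 to 0.0784 in Ep2 vs Ep1. With median centring, Cdk12 was at 0.0044 in Ep2 vs Ep1. The cause of these turns was not tested.

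No sign was seen that replicate numbers pair the libraries. Deviations of same-numbered libraries from their group means correlated between -0.0565 and 0.0744, and those of differently numbered libraries between -0.108 and 0.153. A fit with the number as a block called 0 of the 10 genes in Ep1 vs Ctrl, 10 in Ep2 vs Ctrl and 10 in Ep2 vs Ep1, with 0, 5 and 4 DEGs. Over all tested genes in Ep2 vs Ctrl it called 2719 higher and 3391 lower, in place of 2800 and 3436. Of the regulators named in the report, Mnat1 no longer passed in Ep2 vs Ctrl (adjusted p = 0.0565), Wee1 in Ep2 vs Ep1 (0.0613), nor Lin54 (0.061) and Ccnc (0.0617) in Ep1 vs Ctrl. Alternatives for Lin9, Lin54 and Ccnc were added after seeing the data. With median centring, Wee1 (0.0792) and Cdk9 (0.156) no longer passed in Ep2 vs Ep1, nor did Cdk9 with voom (0.115). Not every library correlated best with its own number. Depth limits Cdc25c most, at 146 to 376 fragments per library.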
